A study of Drosophila melanogaster with 3 samples.

Results

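The trithorax and Brahma complex genes examined here are brm, osa, mor, Snr1, trx, ash1, ash2, Trl and kis, 9 genes out of 13945 annotated as protein-coding on the 6 major arms. They are listed by name, with no threshold on a measured value, but the list was drawn up with results of these data known. All 9 symbols were found in the Ensembl annotation, with 5 genes on 3R, 3 on 3L and 1 on 2L. The data are ChIP-seq libraries, in which DNA bound by a precipitated protein is sequenced, made from whole embryos of Drosophila melanogaster aged 0 to 24 hours, sexes pooled, in 1 group of 3 biological replicates. All embryos came from a transgenic line that expresses CG12942 with green fluorescent protein (GFP) at its C terminus, and the precipitation used an antibody against GFP. The labels do not say which promoter drives the fusion or whether untagged CG12942 was present, and a whole embryo mixes all cell types. No other condition was analysed here, so each statement sets these genes against the other genes of the same libraries. The authors' lists on the dm6 genome held 30000, 30000 and 27870 peaks in replicates 1, 2 and 3, 27271 in the pooled list and 3844 in the optimal list, and the read depth is not given in the sources used here. A peak's strength is the authors' signal value, which is comparable only within a list, so replicates are compared by rank, with rank 1 the strongest.

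Trithorax group proteins keep developmental genes, such as the homeotic genes, in the active state and counteract the Polycomb group. The Brahma complex is the fly SWI/SNF remodeller, which uses ATP to move nucleosomes. In it brm encodes the ATPase, mor a scaffold subunit, Snr1 a core subunit and osa the large DNA-binding subunit that defines one form of the complex. The histone methyltransferases Trx and Ash1 and the methyltransferase cofactor Ash2 act on histone H3, Trl encodes the GAGA factor that binds GA repeats and opens chromatin, and kis encodes a chromodomain helicase.

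The sequences at the summits that carry the results are shown first, read from the RefSeq copy of the dm6 assembly and written 5′ to 3′ on the strand of the member gene. Capitals mark letters that match 1 of 8 motifs on either strand. The motifs are the DRE (TATCGATA), the CGATA at its 3′ end that the insulator protein BEAF-32 binds, and the GAGA element (GAGAG) that the GAGA factor itself binds. The others are the core of promoter motif 1 (GGTCACACT), the TATA box (TATAAA), the core of the Pho site (GCCAT), the homeodomain core (TAATTA) and an E-box (CAGCTG). The CGATA letters lie within the DRE, so a DRE would count for both. For brm the whole sequence between its 5′-most transcription start site (TSS) and that of Arl1 is given (chr3L:15982870-15983134, minus strand, 265 bases), since the peak fills this gap and its summit is base 127. For the others, up to 50 bases to each side of the summit are shown, with any base of an untranslated region left out. The mor and Snr1 promoters are also shared with head-to-head neighbours, Hel89B and mRpL44, though their lines name the member alone.

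brm and Arl1 shared promoter: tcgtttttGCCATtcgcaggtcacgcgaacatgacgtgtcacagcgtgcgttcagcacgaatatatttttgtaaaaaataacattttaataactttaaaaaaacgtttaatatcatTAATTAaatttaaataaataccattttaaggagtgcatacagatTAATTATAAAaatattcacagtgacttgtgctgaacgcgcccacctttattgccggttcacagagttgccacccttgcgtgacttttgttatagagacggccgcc
osa intron, chr3R:17704365-17704465, minus strand: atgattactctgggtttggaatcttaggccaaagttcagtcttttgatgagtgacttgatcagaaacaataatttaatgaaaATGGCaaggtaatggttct
trx intron, chr3R:14283833-14283933, minus strand: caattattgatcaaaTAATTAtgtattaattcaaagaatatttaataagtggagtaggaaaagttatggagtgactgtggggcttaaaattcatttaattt
Trl intron, chr3L:14759457-14759557, minus strand: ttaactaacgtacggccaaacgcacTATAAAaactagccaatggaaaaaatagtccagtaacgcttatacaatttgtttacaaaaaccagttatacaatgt
mor promoter, chr3R:15973015-15973115, minus strand: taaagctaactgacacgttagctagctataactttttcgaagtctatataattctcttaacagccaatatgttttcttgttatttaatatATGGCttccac
Snr1 promoter, chr3R:5470838-5470925, plus strand: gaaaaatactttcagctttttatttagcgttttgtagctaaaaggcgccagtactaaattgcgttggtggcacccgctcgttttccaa
kis promoter, chr2L:250840-250940, minus strand: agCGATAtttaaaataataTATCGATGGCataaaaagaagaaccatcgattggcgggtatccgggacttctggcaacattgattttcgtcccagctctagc
ash1 3′ side, chr3L:19590575-19590675, minus strand: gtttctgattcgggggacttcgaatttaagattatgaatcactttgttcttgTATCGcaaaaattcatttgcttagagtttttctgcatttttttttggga
ash1 and Taf6 shared promoter, chr3L:19598901-19599001, minus strand: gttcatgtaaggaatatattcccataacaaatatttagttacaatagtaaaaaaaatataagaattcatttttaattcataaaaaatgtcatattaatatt

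The windows around these summits differ widely in base composition. The 101 bases around the brm summit held 14.9% G and C, the lowest of the 24 summits at the member genes, and the ash1 and Taf6 window held 16.8%. The whole brm and Arl1 sequence shown above, of 265 bases, held 36.6%. The median over the 24 summits was 32.7% (range 14.9 to 52.5%), against a median of 32.7% over all 3844 optimal summits (quartiles 27.7 and 39.6%).

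Among the 9 genes, 5 carried a promoter summit of the optimal list, meaning one at most 500 bp from a TSS, namely brm, mor, Snr1, Trl and kis (55.6%), against 2674 of all 13945 genes (19.2%). A summit lay inside the gene body of 4, osa, trx, Trl and kis (44.4%), against 10.1% of all genes. These 4 genes are long, and among genes within 25% of the length of each the share with a summit in the body was 40.6% for osa, 39.8% for trx, 27.9% for Trl and 38.6% for kis, so 10.1% is a low comparison for them. At the promoter or in the body, 7 of the 9 had a summit, against 23.3% of all genes, and the exceptions were ash1 and ash2. With 5 kb on each side included, all 9 had a summit, against 45.6% of all genes. This last share also differs with gene length. Among genes within 25% of a member's own length it was between 44.2% (for Snr1, 1829 bp) and 60.8% (for trx, 23546 bp). Leaving out replicate 2, which replaces the optimal list by the peaks shared by the strongest 3844 of replicates 1 and 3, gave 3 promoters (brm, Trl and kis), against 14.5% of all genes. No test was made of these counts, since results were known when the list was drawn up.

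**Figure D1:**
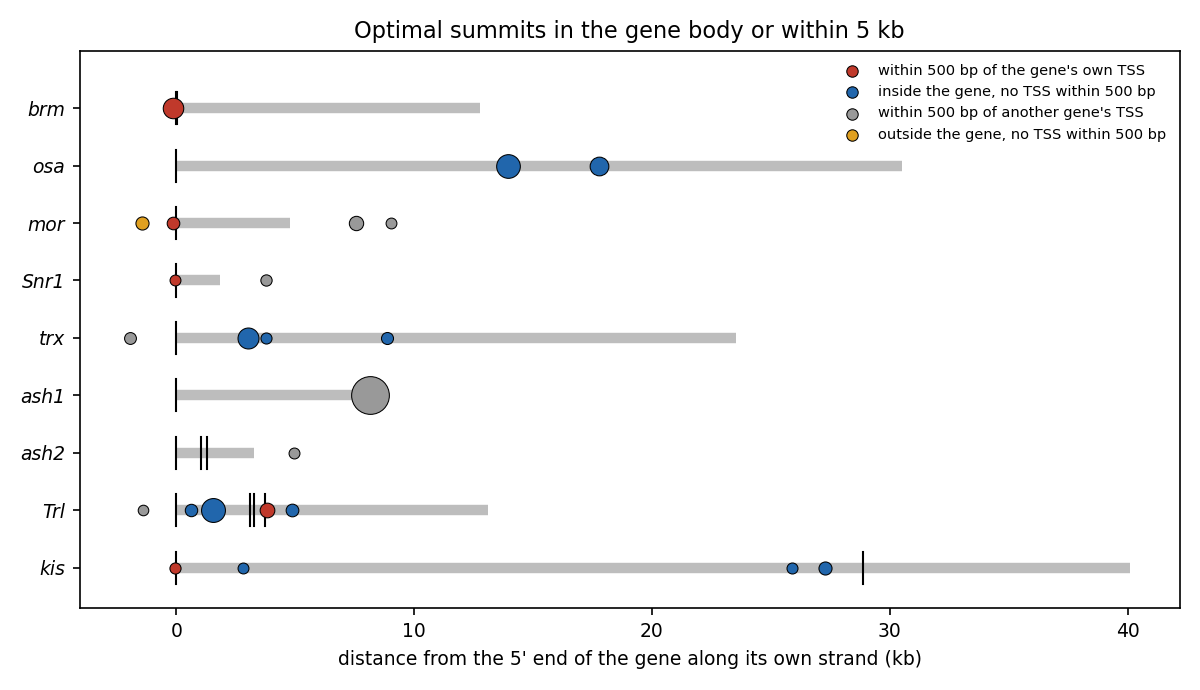
Position of the 24 optimal summits at the 9 genes. The x axis is the distance in kb from the 5′ end of each gene along its strand, grey bars are gene bodies, black ticks are annotated TSSs, and each circle is a summit whose area grows with the authors' signal. The strongest summits of osa, trx and Trl lie inside the gene, that of brm at its start, and the largest circle, with a signal of 1897, lies beyond the 3′ end of ash1.

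The 24 summits fell into 4 kinds of position. In all, 5 lay within 500 bp of the gene's own TSS, 11 inside the gene away from any TSS, 7 within 500 bp of the TSS of another gene and 1 outside the gene away from any TSS. Of the 12 summits inside a member gene, 11 were intronic, and the other lay in a 5′ untranslated region of Trl. Matching by summits within 200 bp, 17 of the 24 (70.8%) were among the 3844 strongest peaks of every replicate, against 63.5% of all optimal peaks. Another 6 were matched in 2 replicates and 1 in 1 replicate. A summit among the strongest 5% of optimal peaks lay in the body or within 5 kb for 5 of the 9 genes, brm, osa, trx, ash1 and Trl, against 4.50% of all genes, a limit chosen after the values were seen. At ash1 this was a promoter peak of CG14100 outside the gene, and at brm a peak shared with Arl1. No share in genes of like length is given for this limit, and osa, trx and Trl are long.

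Among the Brahma complex subunits, the gene of the ATPase itself had the strongest promoter peak of the 9 genes. The brm peak (FBgn0000212, 3L, 15982837 to 15983169) had a signal of 509 and ranked 102 of the 3844 optimal peaks and 67 of the 2008 optimal promoter summits. It ranked 137, 96 and 94 in replicates 1, 2 and 3, with signals of 159, 157 and 191. All 3 replicates therefore placed it well inside their strongest peaks. The summit lay 139 bp upstream of the brm TSS and 127 bp upstream of that of Arl1, which encodes an Arf-like GTPase of the Golgi and runs the other way from a TSS 266 bp away. The peak cannot be assigned to one of these genes. It was the only optimal summit within 5 kb of brm, and the 12788 bp gene held none.

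The optimal promoter peaks whose ranks in the 3 replicates were nearest to those of brm lay at CG1602 with PIG-G, and at CG7639. Likeness was the Euclidean distance of log2 ranks over the 3 replicates, computed for 2626 other genes with a promoter peak found in all of them. The peak shared by CG1602 and PIG-G was at a distance of 0.22 (ranks 135, 111 and 91) and that of CG7639 at 0.46 (ranks 113, 123 and 100).

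osa had no promoter peak and instead a pair of strong intronic peaks. Both lay in the fourth intron of this 30533 bp gene (FBgn0261885, 3R). The stronger (17704246 to 17704573) had a signal of 703 and ranked 40 in the optimal list and 42, 38 and 49 in replicates 1, 2 and 3. Its summit, 13935 bp downstream of the only TSS of osa, also lay in an exon of the noncoding gene lncRNA:CR46035. The other (17700419 to 17700755) had a signal of 412, ranked 174, and ranked 161, 164 and 197 in the replicates. The order of the 2 peaks was the same in every replicate. Among the 1836 optimal summits with no TSS within 500 bp they ranked 12 and 51. The pooled list held 20 summits in the body or within 5 kb of osa but 0 within 500 bp of its TSS. The body share of 40.6% given above for osa rests on 399 genes of like length.

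mor had a moderate promoter peak that was weak in 1 replicate. The peak (FBgn0002783, 3R, 15972863 to 15973266) had a signal of 148 and ranked 1472 in the optimal list. It ranked 5973, 1135 and 1070 in replicates 1, 2 and 3, with signals of 24.2, 51.3 and 62.6, so replicate 1 placed it outside its strongest 3844. The summit lay 152 bp upstream of the mor TSS and 233 bp upstream of that of Hel89B, a gene for an ATPase of the Mot1 family that starts 385 bp away on the other strand. A further summit (signal 166, rank 1215) lay 1448 bp upstream of mor in an intron of Hel89B, and ranked 987, 3124 and 933. The remaining summits within 5 kb were promoter peaks of other genes. That of CG32856 and Rbf2, a retinoblastoma family gene, had a signal of 212 and lay 2796 bp beyond the 3′ end of mor. That of CG5516 and CG4287 had a signal of 90.1 and was among the strongest 3844 in replicate 1 alone.

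The Snr1 promoter peak was close to the lower limit of the optimal list. It (FBgn0011715, 3R, 5470686 to 5471089) had a signal of 92.1 and rank 3071, where the lowest optimal signal was 78.9. It ranked 2973, 3578 and 3956 in the replicates, so replicate 3 placed it just outside its strongest 3844. The summit lay 38 bp upstream of the Snr1 TSS and 252 bp upstream of that of mRpL44, a mitochondrial ribosomal protein gene in head-to-head orientation. The other summit within 5 kb, with a signal of 104, was 1944 bp beyond the gene at the promoters of CG45100, HDAC3 and Hcs, of which HDAC3 encodes a histone deacetylase.

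**Figure D2:**
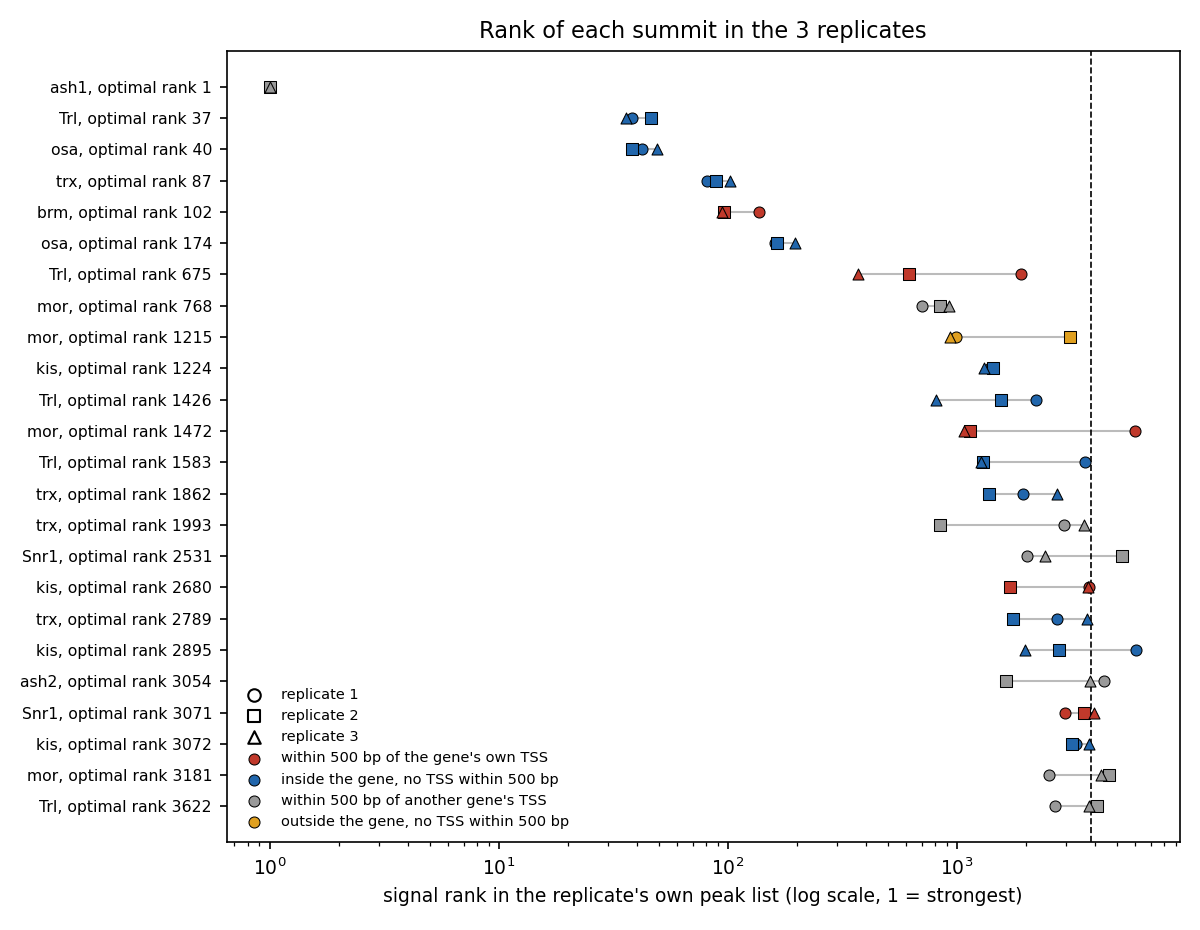
Signal rank of the 24 summits in each replicate's own list. The x axis is the rank on a log scale (1 is the strongest), rows are summits named by gene and rank in the optimal list, marker shapes are replicates, colours are the kind of position and the dashed line is rank 3844. The 6 strongest stay within narrow rank ranges (36 to 197 apart from the top peak, which ranked 1 in every replicate), while the mor promoter peak lies at 1070, 1135 and 5973.

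The gene of the histone methyltransferase Trx resembled osa in having its main peak inside the gene. The strongest trx peak (FBgn0003862, 3R, 14283699 to 14284038) had a signal of 536 and rank 87, and ranked 81, 89 and 102 in replicates 1, 2 and 3. No replicate placed it lower than 102. Its summit was in the first intron, 3020 bp downstream of the only TSS. A weaker summit lay 3781 bp downstream (signal 97.9, ranks 2731, 1748 and 3688) and another 8877 bp downstream (signal 128, ranks 1949, 1382 and 2719), both intronic. At the trx TSS itself the pooled list had a summit 13 bp upstream with rank 6807, which is outside the optimal list, and the matched peaks ranked 7200, 7031 and 6742 in the replicates. The remaining summit within 5 kb, with a signal of 122, was 1954 bp upstream of trx at the promoter of red. The body share of 39.8% for trx rests on 490 genes of like length.

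ash1 had no optimal peak of its own, but the strongest peak of the whole optimal list abutted its 3′ end. This peak (3L, 19590416 to 19590813, signal 1897) ranked 1 in every replicate, with signals of 568, 613 and 720. It lay at the promoter of CG14100, 101 bp upstream of that TSS. Its summit was 148 bp beyond the 3′ end of ash1 (FBgn0005386) and 41 of its 398 bases overlapped the ash1 gene. At the ash1 TSS the pooled list had a peak with a signal of 77.8 and rank 3896, just below the 3844 optimal peaks. It ranked 6682, 7110 and 2790 in replicates 1, 2 and 3, so replicate 3 alone placed it in its strongest 3844. The summit was 196 bp upstream of ash1 and 137 bp upstream of Taf6, a gene for a subunit of the general transcription factor TFIID, whose TSS is 333 bp away on the other strand.

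ash2 had the fewest pooled peaks of the 9 genes. No summit of the pooled list lay within 500 bp of any of its 3 TSSs, although it shares a head-to-head promoter with puf, a ubiquitin protease gene, at a TSS gap of 82 bp. The only pooled summit in its body or within 5 kb was 1691 bp beyond the gene (FBgn0000139, 3R) at the promoters of CG6695 and CG31125, with a signal of 92.4 and ranks of 4360, 1641 and 3802 in replicates 1, 2 and 3.

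Trl, the gene of the GAGA factor, had 5 optimal summits, the most of the 9 genes. The strongest (FBgn0013263, 3L, 14759321 to 14759743) had a signal of 717 and rank 37, and ranked 38, 46 and 36 in replicates 1, 2 and 3. It lay in the second intron, 1542 bp downstream of the 5′-most TSS, and ranked 11 of 1836 among optimal summits with no TSS within 500 bp. A second intronic summit lay 623 bp downstream of the same TSS (signal 141, ranks 3634, 1300 and 1267). The Trl promoter peak counted above was at the 3′-most of its 4 TSSs. This summit, 115 bp downstream of that TSS in a 5′ untranslated region, had a signal of 226 and ranks of 1895, 616 and 369. A summit in the following intron had a signal of 151 and ranks of 2211, 1552 and 805. The overlapping gene CG42507 holds both of these summits too, so they cannot be put down to Trl alone. At each of the 3 weaker intragenic summits replicate 1 gave the highest rank number. The remaining summit, 1403 bp upstream of Trl with a signal of 82.3, was inside Mgat4a. The body share of 27.9% for Trl rests on 732 genes of like length.

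kis, the longest of the 9 genes at 40089 bp, had 4 optimal summits of modest signal. The promoter peak (FBgn0266557, 2L, 250688 to 251091) had a signal of 100 and rank 2680, and ranked 3752, 1696 and 3720 in replicates 1, 2 and 3. Its summit was 67 bp upstream of the 5′-most TSS, with no head-to-head partner. Replicates 1 and 3 placed it near the end of their strongest 3844. The strongest kis peak (223458 to 223636, signal 165) was intronic, 1604 bp upstream of the internal TSS, in an exon of the noncoding gene lncRNA:CR44222, and ranked 1395, 1440 and 1315. The other intronic summits had signals of 95.6 and 92.1. The first of these ranked 6067, 2788 and 1982, and the second 3320, 3176 and 3765. At the internal TSS, the pooled list had a summit 169 bp downstream with a signal of 55.7, below the optimal list. The body share of 38.6% for kis rests on 352 genes of like length.

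**Figure D3:**
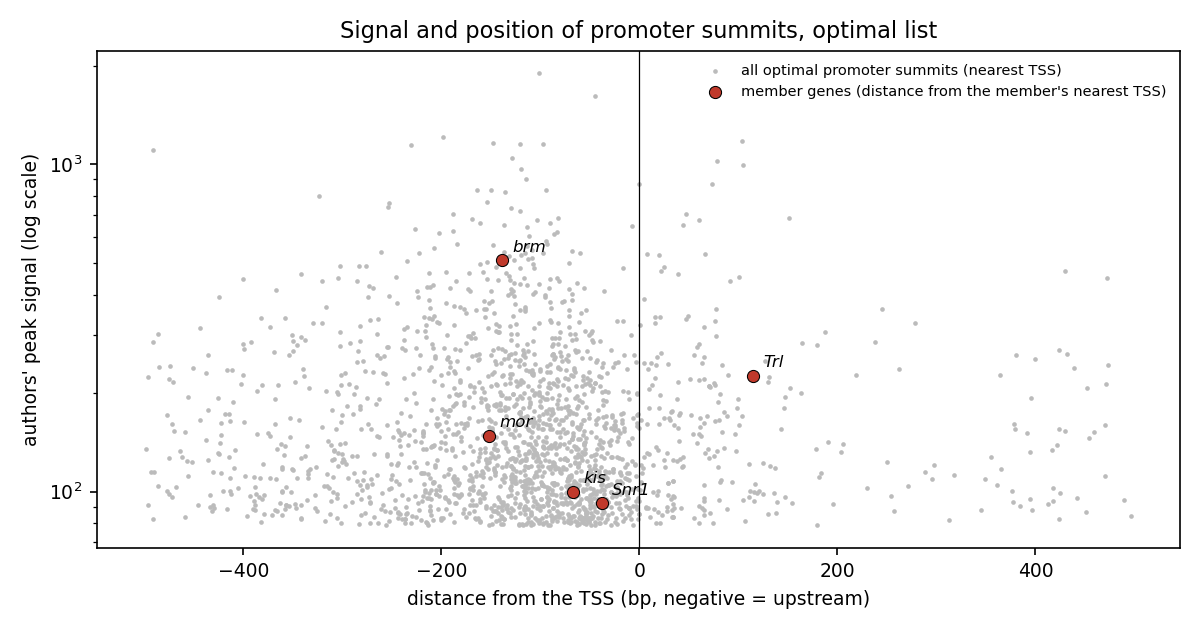
Signal against position for promoter summits of the optimal list. The x axis is the distance from the TSS in bp (negative is upstream), the y axis is the authors' signal on a log scale, red points are the 5 member genes at the distance from their own nearest TSS and grey points are the 2008 promoter summits at the nearest TSS. brm stands high with a signal of 509, kis and Snr1 lie near the lower edge, and Trl is the member whose summit is downstream.

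The promoter summits lay mostly just upstream of the gene. Of the 5 members, 4 had the summit 38 to 152 bp upstream of their own TSS, and of all 2008 summits at promoters 86.7% were on the upstream side, with a median distance of 106 bp upstream of the nearest TSS. Of the 9 genes, 3 had a promoter summit among the strongest 3844 peaks of every replicate with summits within 200 bp, namely brm, Trl and kis, against 13.3% of all genes. The counts were 4, 5 and 5 in replicates 1, 2 and 3, against 18.6%, 19.2% and 18.8% of all genes. In the pooled list, which includes background peaks, 7 of the 9 had a promoter summit, against 51.0% of all genes, and osa and ash2 had none.

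Several of these genes share a promoter region with a diverging neighbour. A head-to-head TSS within 500 bp was found at 5 of the 9, brm, mor, Snr1, ash1 and ash2, against 27.4% of all genes. In the lists described below, the other Brahma complex subunits stood at 62.5% and the COMPASS subunits at 46.2%. The other trithorax group and remodeller genes stood at 53.3%, so this trait is not particular to the 9 genes. Within 250 bp it was found at 1, ash2, a distance for which no share of all genes is given. Of these 5, 3 had an optimal promoter summit, against 40.6% of all head-to-head genes, and of the 4 without a partner 2 did, Trl and kis, against 11.1% of such genes. At brm and ash1 the summit was nearer to the partner's TSS, and at mor and Snr1 nearer to that of the member. With 5 and 4 genes these shares are too coarse to compare.

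The remaining genes of the pathway were counted by the same rules. Many of them have a head-to-head partner, and the promoter share of all head-to-head genes was 40.6%. The share of all genes is therefore a low comparison for the promoter counts of these lists. Of 8 other Brahma complex subunits, 3 had an optimal promoter summit (37.5%), against 19.2% of all genes. These were Bap60, a core subunit (signal 176, 181 bp upstream, ranks 1273, 1046 and 1209 in replicates 1, 2 and 3), Act5C, an actin gene (signal 143, 438 bp upstream, ranks 2078, 476 and 1051), and d4 (signal 83.0, ranks 20823, 7652 and 1655). The d4 peak was thus strong in replicate 3 alone. The Bap60 summit lay nearer to the TSS of its head-to-head partner CG12096, so it cannot be put down to Bap60 alone. Bap55, Bap111, Bap170, polybromo and e(y)3 had none in the optimal list, as is the case for most genes. In the pooled list all 8 subunits had a promoter summit, against 51.0% of all genes. In the gene body 1 of the 8 had an optimal summit, d4, against 10.1% of all genes. This is the same d4 peak as at the promoter, with its summit in an intron 200 bp upstream of an internal TSS.

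Of 13 genes for subunits of the COMPASS histone methyltransferase complexes, in which Ash2 is a shared subunit, 6 had an optimal promoter summit (46.2%), against 19.2% of all genes. They were Rbbp5 (signal 195, 315 bp upstream, with the head-to-head partner eRF1), Lpt (signal 135), Mnn1 (signal 112), Dpy-30L1 (signal 102), Ptip (signal 90.0) and the methyltransferase gene trr (signal 82.3). The Rbbp5 summit lay nearer to the TSS of eRF1, and Lpt, Dpy-30L1 and trr also have head-to-head partners (CG5339, EMC3 and mRpL16). Rbbp5, whose protein works beside Ash2, ranked 1190, 1144 and 653 in the replicates, and Lpt 2292, 1194 and 1928. Only these 2 of the 13 (15.4%) were found among the strongest 3844 peaks in all 3 replicates. That share is near the 13.3% of all genes. In the gene body 0 of the 13 had an optimal summit, against 10.1% of all genes, a share at which a count of 0 in so short a list is not far from the background.

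Of 15 other trithorax group and remodeller genes, 5 had an optimal promoter summit (33.3%), against 19.2% of all genes. In the gene body 6 of the 15 had one (skd, tna, fs(1)h, psq, lolal and Mi-2), against 10.1% of all genes. A body share above that of all genes is therefore not particular to the 9 genes. No share in genes of like length is given for this list, and 10.1% is a low comparison for long genes. The strongest of the 5 promoter summits was at Chd1, a chromodomain remodeller gene like kis (signal 266, 276 bp upstream, ranks 648, 605 and 362). Its summit lay nearer to the TSS of the head-to-head partner Bem46, so this peak cannot be put down to Chd1 alone. The other promoter summits were at skd, a Mediator subunit gene (signal 161), the bromodomain gene fs(1)h (signal 142), psq (signal 138) and lolal (signal 121). Both skd and fs(1)h have head-to-head partners, Pdss2 and mys, and the fs(1)h summit lay nearer to the TSS of mys. The product of psq binds GA repeats as the GAGA factor does, and lolal encodes a partner of the GAGA factor. lolal ranked 1005, 1658 and 5912, so replicate 3 placed it outside its strongest 3844. Apart from these 5 genes, no gene of this list had an optimal promoter summit, as is the case for most genes. Those without one include the remodeller genes Iswi, Mi-2, Chd3 and dom. None of the 5 promoter signals of this list reached that of brm.

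**Figure D4:**
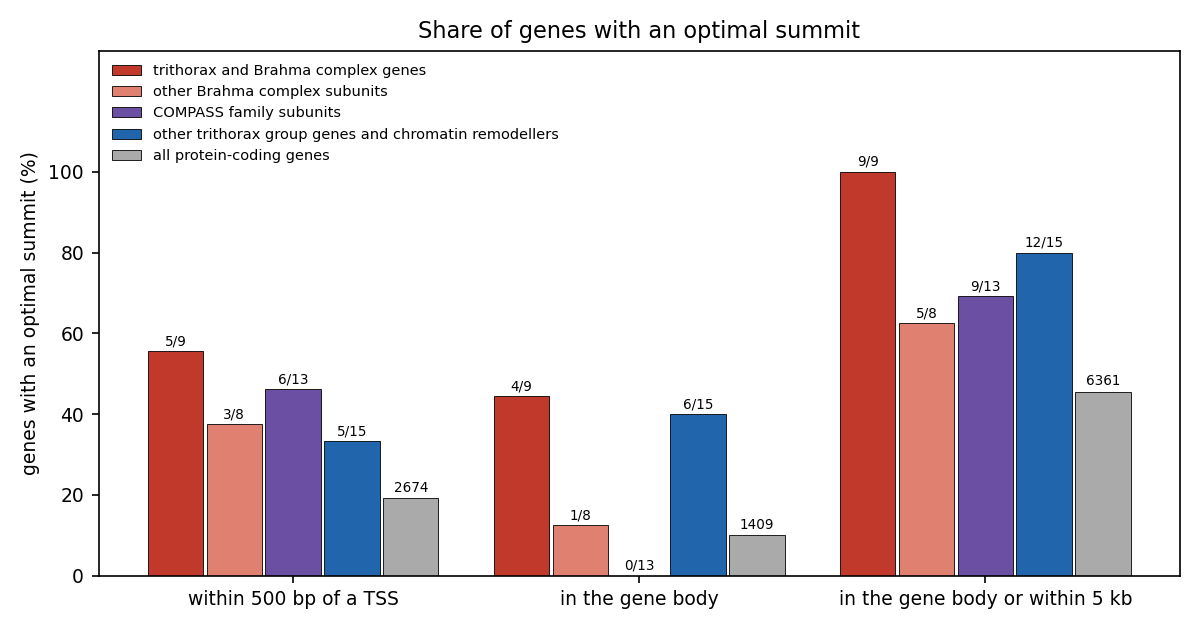
Share of genes with an optimal summit by position and gene list. The y axis is the percentage of genes, bars are the 9 trithorax and Brahma complex genes, 3 other lists and all 13945 protein-coding genes, and the numbers above the bars are genes with a summit over genes in the list, with the count alone for all genes. At the promoter the 9 genes stand at 55.6% and all genes at 19.2%, and in the gene body at 44.4% and 10.1%.

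The sequence motifs were found at the 24 member summits at shares near those of all optimal summits. Within 50 bp of the summit, the TATA box letters were found at 6 of 24, against 21.1% of 3844. CGATA was found at 4 (16.7%), against 17.2%, the Pho core at 4 (16.7%), against 14.5%, and the homeodomain core at 4 (16.7%), against 10.3%. GAGAG was found at 2 (8.33%), against 9.78%, and the E-box at 1 (4.17%), against 3.64%. None held the DRE or the motif 1 core, which were found at 1.85% and 0.624% of all optimal summits. These counts move with the window. The share of all optimal summits is given only for 50 bp, so the counts at other windows have no background to set beside them. Within 100 bp the TATA box letters were found at 14 of the 24 summits, CGATA at 7, the homeodomain core at 7, GAGAG at 5, the Pho core at 5 and the DRE at 1. Within 25 bp the TATA box letters were found at 3, CGATA at 2 and the homeodomain core, GAGAG and the Pho core at 1 each. In the 101 bases upstream of the 19253 annotated TSSs the shares were 18.3% for the TATA box, 25.9% for CGATA, 17.3% for the Pho core, 5.27% for the homeodomain core, 15.5% for GAGAG, 7.59% for the E-box, 5.14% for the DRE and 1.91% for the motif 1 core. The brm sequence above holds TAATTA 2 times and TATAAA 1 time within 50 bp of the summit, and the kis promoter holds CGATA 2 times and GCCAT 1 time. No GAGAG was found within 50 bp of any of the 5 summits at Trl, the gene of the factor that binds it. With GAGAG at 9.78% of all optimal summits, its absence from so few is not far from the background. These are matches of letters in a window and do not show that a factor binds there.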

How the data were processed

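The data are ChIP-seq peak lists of 3 biological replicates of 1 group, in narrowPeak format. The 5 lists on dm6 were used. Per the listings deposited beside the files, a replicate's peaks were called from the alignment of that library with a control alignment, the pooled peaks from the 3 alignments together, and the optimal peaks came from these lists by IDR (irreproducible discovery rate). No aligner, peak caller or version is named in the sources used here. The signal of a peak is the value deposited by the authors. The optimal list equals the 3844 strongest pooled peaks, in the same order. The 5 lists on dm3 were not used, and signal tracks and the control were not analysed here.

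Genes and TSSs were taken from Ensembl (release 115), on the assembly of the peaks. Every peak ended within its chromosome arm in the RefSeq sequence. A promoter summit lay within 500 bp of a TSS of a protein-coding transcript, and summits within 200 bp were called matched. Head-to-head genes had diverging TSSs within 500 bp. Where a peak matched several in a replicate, the strongest was taken. Coordinates are 1-based. Of the 36 genes in the 3 other lists, lid was found under its synonym as Kdm5.

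Ranks and counts are descriptions and no test was run. Depth is unknown, so no counting interval is given, and the replicates may differ in depth. The members and lists were chosen with earlier results of these data known. Named are all members, promoter partners, list genes with an optimal promoter summit and the 3 genes ranked most like brm. Any list gene without one, other neighbours and lncRNAs were picked once their values were known. The counting was tested on simulated data. A set of 43 alternatives was planned and 1 was added later. The work used Python 3.11.15, numpy 2.4.6 and matplotlib 3.10.9.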

Additional observations from a re-analysis of the deposited data

How the results depend on the processing

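The number of members with an optimal promoter summit was 5 with windows of 250 and 1000 bp, and 4 with the 5′-most TSS alone, which removes Trl. The planned use of the strongest pooled peaks gives the same 3844 peaks as the optimal list and so is no separate check. It was 3 among the strongest 1922 optimal peaks (brm, mor and Trl) and 3 among optimal peaks matched in all 3 replicates (brm, Trl and kis). With a replicate left out, which replaces the optimal list by the peaks shared by the strongest 3844 of the other replicates, it was between 3 and 4. It was 3 without replicate 2, where mor and Snr1 were lost, and 4 without replicate 1 or 3. Under these settings the share of all genes lay between 11.4% and 21.8%.

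Members with a summit in the body or within 5 kb were 7 to 9 under the other peak lists, 9 with flanks of 2000 and 10000 bp, 4 in the gene body alone (osa, trx, Trl and kis) and 7 at the own promoter or in the body, a setting added after seeing the data. Members with a promoter summit in every replicate were 7 with the limit at 7688 peaks, which adds mor, Snr1, trx and ash1, and 2 to 4 otherwise. Pooled-list promoter summits were found at 6 to 8. Head-to-head partners within 250 bp were found at 1 gene, ash2, and within 1000 bp at 6. At least 1 motif was found at 16 of 24 summits, at 8 within 25 bp and at 22 within 100 bp. The gene body alone gave 10.1% of all genes, and the own promoter or body 23.3%. For the other changed settings in this paragraph no share of all genes or of all optimal summits is given. Their shifts therefore cannot be read as a result about the members. The lack of read counts limits all statements to ranks. Weak peaks, such as that of Snr1 inside the optimal list and that of ash1 just outside it, therefore cannot be placed firmly on either side of its limit.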

Other observations

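Beside genes of the 3 other lists, the peaks within the strongest 5% of the optimal list lay at promoters of neighbouring genes. These peaks were chosen after seeing their values. The strongest peak within 5 kb of Caf1-55, which encodes a histone-binding protein, had a signal of 1155 and ranked 6, 10 and 11 in replicates 1, 2 and 3, at the shared promoter of Art3 and mRpS10. That near Wdr82 had a signal of 687 and ranks of 39, 35 and 73, at the promoters of CG13390 and CG17294. That near MRG15, which encodes a chromodomain protein, had a signal of 450 and ranks of 188, 116 and 124, at the promoters of Cp190, an insulator protein gene, and CG4338. None of these 3 genes had an optimal summit within 500 bp of its own TSS.

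Inside Mi-2, which encodes a chromodomain remodeller, an intronic summit had a signal of 297 and ranked 282, 661 and 330, and it also lay in an intron of the overlapping gene Su(Tpl).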
